A study of Homo sapiens with 4 samples.

Results

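The 12S and 16S mitochondrial ribosomal RNAs are the products of MT-RNR1 and MT-RNR2, 2 of the 37 genes that the deposited table places on the mitochondrial chromosome and 2 of its 62700 genes in all. Both were taken by their symbols, and both were among the 18973 genes with enough counts to be tested. The 12S rRNA is the RNA of the small subunit of the mitochondrial ribosome, and the 16S rRNA is the RNA of the large subunit, where peptide bonds are made. Both are transcribed from the heavy strand as one long precursor with the tRNAs around them, and the tRNAs are cut out at their ends to set the rRNAs free. In most tissues they are far more abundant than mitochondrial mRNAs, so library kits are often designed to remove them together with cytosolic rRNA.

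The RNA came from HEK293T, a human embryonic kidney line, in a stable clone derivative with the genotype CMV-V5-MITO-PRADA, a V5-tagged labelling construct for the mitochondrial matrix under the CMV promoter. Both groups carried the construct and received 100 µM of the uridine analogue s4U for 5 h, followed by 0.5 mM alkyne phenol with s4U for 30 min. The labelled group (4SU+AP+DF, Maxima H, 2 libraries) was then given D-amino acid at 10 mM, which starts the reaction, for 30 min, and the unlabelled group (4SU+AP, Maxima H, 2 libraries) did not. All 4 libraries were made after rRNA depletion with a Ribo-MagOff kit, and the design text calls the material labelled and enriched. The titles call the replicates biological without saying how cultures were kept apart, so the p-values speak only of the spread among these 4, which may be technical. Xenograft tumours named in the design text were not analysed here.

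The labelled libraries held 9380258 and 12287451 fragments assigned to genes, and the unlabelled libraries held 8172347 and 5771795. All 7 genes listed as expressed in HEK293T cells were counted in every library. The highest was vimentin (VIM), at 1601 and 1888 fragments in labelled and 1939 and 1187 in unlabelled libraries. The lowest was NEFM, at 11 and 26 in labelled and 4 and 8 in unlabelled libraries. Of the 7 markers of other cell types, haemoglobin beta (HBB) was at 0 in all 4 libraries and the leukocyte gene PTPRC at 0 or 1, as was the endothelial gene PECAM1. Haemoglobin alpha (HBA1) had 8 and 7 labelled and 1 and 9 unlabelled fragments, COL3A1 had 3 and 10 labelled and 12 and 4 unlabelled, and albumin (ALB) had 1 to 5 in every library. The collagen gene COL1A1 was higher than these, with 176 and 206 labelled and 174 and 78 unlabelled fragments. In every library it was also higher than NEFM, NEFL, INA and KRT8 from the HEK293T list. In bulk RNA that was labelled and enriched, fewer mitochondria or cells, less RNA in each and a difference in enrichment cannot be told apart.

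The gene for 12S (ENSG00000211459) covers 954 bases on the plus strand at chrM:648-1601 of GRCh38, and the gene for 16S (ENSG00000210082) covers 1559 bases at chrM:1671-3229. Each is 1 exon with no intron or coding sequence. Both follow a tRNA gene with no base between, as the reference sequence from GENCODE 29 shows, 5′ to 3′ on the plus strand. Capitals mark the tRNA, which is MT-TF (phenylalanine) in the first stretch, chrM:577-677, and MT-TV (valine) in the second, chrM:1572-1700. The third stretch is the end of 16S at chrM:3200-3229, where MT-TL1 (leucine) begins at the next base.

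MT-TF and start of 12S: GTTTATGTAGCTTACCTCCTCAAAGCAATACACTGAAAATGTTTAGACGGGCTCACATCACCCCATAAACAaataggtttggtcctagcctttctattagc

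end of 12S, MT-TV and start of 16S: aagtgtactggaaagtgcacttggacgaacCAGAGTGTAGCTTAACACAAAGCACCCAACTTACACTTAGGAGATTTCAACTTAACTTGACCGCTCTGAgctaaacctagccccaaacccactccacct

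end of 16S: tatacccacacccacccaagaacagggttt

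These junctions matter for the counts, since a fragment that touches both a tRNA and an rRNA gene can be ambiguous and then stays unassigned. Copies elsewhere in the genome matter too, because fragments that map to several places are not counted. None of the 855 windows of 100 bases in 12S, and none of the 1460 in 16S, was found exactly in another GENCODE 29 transcript (0 of each). Copies outside annotated transcripts and near-identical copies were not searched for, so loss of fragments to several places was not measured. The longest exact match to 16S was 99 bases (chrM:1901-1999) in MTRNR2L12, a nuclear copy that was not analysed here. Uridine, the base that s4U replaces, made up 21.5% of 12S and 22.1% of 16S. Among the 13 mitochondrial mRNAs its share ran between 21.7% in MT-ATP8 and 37.7% in MT-ND6, with a median of 25.6%, so both rRNAs lie at the low end. Guanine took 19.0% of 12S and 17.3% of 16S, above the mRNA median of 11.7%.

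The question for these 2 rRNAs was how much of each library they took, and whether that followed the labelling. The 12S rRNA had 20511 and 87371 fragments in labelled replicates 1 and 2, and 21169 and 5241 in unlabelled replicates 1 and 2. This was 0.219% and 0.711% of assigned fragments in the labelled libraries, and 0.259% and 0.0908% in the unlabelled libraries. Labelled replicate 2 was the highest and unlabelled replicate 2 the lowest, and labelled replicate 1 lay below unlabelled replicate 1, so the groups overlapped.

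The 16S rRNA had 22880 and 134614 fragments in the labelled libraries and 35319 and 8065 in the unlabelled libraries. Its shares were 0.244% and 1.10% in labelled against 0.432% and 0.140% in unlabelled libraries. The order of the 4 libraries was the same as for 12S. Together the rRNAs took 0.463% and 1.81% of labelled fragments (95% Wilson intervals 0.458 to 0.467% and 1.80 to 1.81%), and 0.691% and 0.231% of unlabelled fragments. The means were 1.13% ± 0.95 and 0.461% ± 0.326 (SD, n = 2 each), and their difference of 0.674 percentage points was smaller than the SD of the labelled pair. It was 0.0017 points without labelled replicate 2 and 1.35 points without labelled replicate 1, and 0.443 points without unlabelled replicate 2. As a share of nuclear fragments it was 1.12 points. A two-sided exact permutation test gave p = 0.667, and the smallest p that 2 against 2 libraries allow is 0.333.

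In counts per 1000000 (CPM) scaled by TMM, a factor that sets the bulk of genes equal between libraries, 12S stood at 2392 and 8405 CPM in labelled and 2358 and 791 CPM in unlabelled libraries. On this scale its groups no longer overlapped, by a margin of 2392 against 2358 CPM between labelled and unlabelled replicate 1, and 22.2% of all genes tested were higher without overlap. For 16S the values were 2668 and 12949 CPM in labelled and 3933 and 1217 CPM in unlabelled libraries, which still overlapped. In edgeR's quasi-likelihood test, MT-RNR1 had a log2 fold change (labelled over unlabelled) of 1.78 ± 0.55 (SE), with an unadjusted p of 0.00715 and an adjusted p of 0.303. MT-RNR2 had 1.6 ± 0.63, with an edgeR unadjusted p of 0.0263 and an adjusted p of 0.381. Neither passed the adjusted threshold of 0.05, which 0.285% of all genes tested did (0.269% as higher and 0.0158% as lower). Both passed an unadjusted p of 0.05 and were among the 5.67% of genes that were higher. DESeq2, which called 0.458% of the genes to which it gave an adjusted p, gave both 0.9995.

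**Figure D1:**
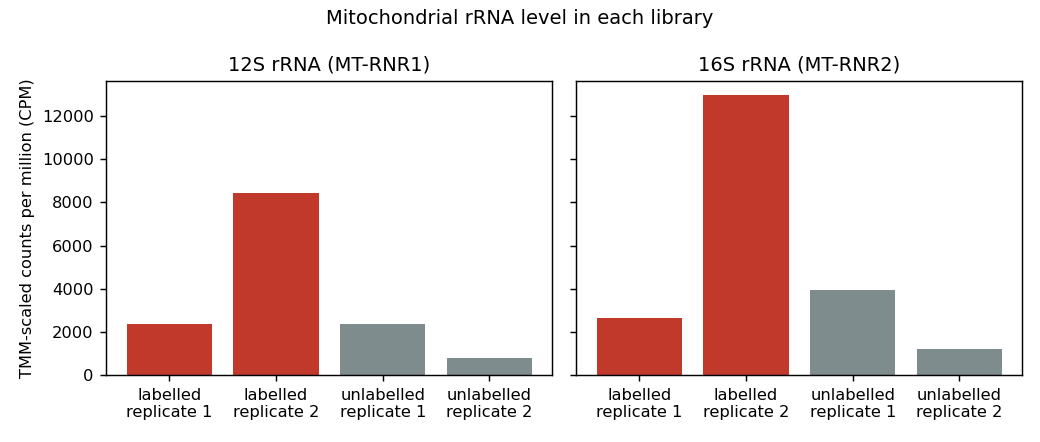
TMM-scaled level (CPM) of the 12S rRNA (left panel) and the 16S rRNA (right panel) in each library, 1 bar a library, with labelled libraries left of unlabelled ones. Labelled replicate 2 stands highest at 8405 and 12949 CPM, and unlabelled replicate 2 stands lowest at 791 and 1217 CPM.

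The estimate depended on single libraries. Without labelled replicate 2, the edgeR log2 fold changes were 0.61 for MT-RNR1 and 0.059 for MT-RNR2, and neither passed the threshold. Without unlabelled replicate 1 they were 2.80 and 2.71. Leaving out labelled replicate 1 gave 2.43 and 2.35, and leaving out unlabelled replicate 2 gave 1.20 and 1.00. In the fits without any library but labelled replicate 2 both rRNAs passed, but those fits also called more genes over the whole table. A fit that leaves 1 library in a group assumes that it varies like the others. With no filter on low counts both rRNAs also passed in edgeR, at 1.80 and 1.63 (adjusted p 2.04e-25 and 7.20e-21). That fit called 302 of 39689 genes, against 54 of 18973 in the main fit.

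The ratio of 16S to 12S was the most even of these measures. Counted in fragments it was 1.12 and 1.54 in labelled and 1.67 and 1.54 in unlabelled libraries. Per kilobase of gene it was 0.683 and 0.943 in labelled and 1.02 and 0.942 in unlabelled libraries. Replicates 2 of both groups were nearly the same, and labelled replicate 1 stood lowest. As a share of both rRNAs, 16S took 52.7% (95% Wilson interval 52.3 to 53.2%) in labelled replicate 1 and 60.6% (60.4 to 60.8%) in labelled replicate 2, against 62.5% (62.1 to 62.9%) and 60.6% (59.8 to 61.4%) in unlabelled replicates 1 and 2. Labelled replicate 1 was thus below the other 3 beyond counting error, and unlabelled replicate 1 was above both replicates 2 beyond counting error. The group difference of the log2 ratio was -0.29, with an exact permutation p of 0.667. It shrank to -0.057 without labelled replicate 1 and came to -0.52 without labelled replicate 2.

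Per kilobase, both rRNAs lay at the bottom of the mitochondrial transcripts that are not tRNAs. The 12S level was 2507 and 8810 CPM per kilobase in labelled and 2471 and 829 in unlabelled libraries. The 16S level was 1711 and 8306 CPM per kilobase in labelled and 2523 and 781 in unlabelled libraries. The median of the 13 mRNAs was 20082 and 26083 CPM per kilobase in labelled and 6266 and 7641 in unlabelled libraries. Each library therefore placed 12S and 16S at ranks 14 and 15 of the 15 transcripts, in one order or the other. The median mRNA exceeded 16S by 11.7-fold and 3.14-fold in labelled and by 2.48-fold and 9.79-fold in unlabelled libraries.

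**Figure D2:**
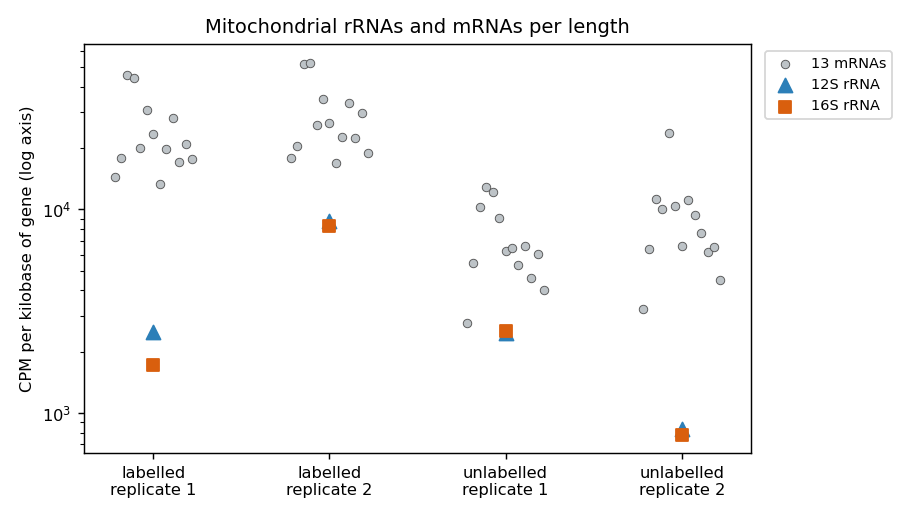
Level per kilobase of gene (CPM per kilobase, log axis) of the 13 mitochondrial mRNAs (circles), 12S (triangle) and 16S (square) in each library, labelled libraries on the left. Both rRNAs lie below all 13 mRNAs in the 4 libraries, at ranks 14 and 15 of 15.

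Against the mRNAs, the rRNAs did not keep a fixed proportion. For each 100 fragments of the 13 mRNAs there were 1.76 and 6.26 rRNA fragments in labelled and 8.32 and 2.28 in unlabelled libraries. The 2 lowest values belong to labelled replicate 1 and unlabelled replicate 2, so the groups overlapped. The mRNAs themselves took 26.3% and 28.8% of labelled and 8.30% and 10.1% of unlabelled fragments, with no overlap. The log2 ratio of rRNA to mRNA differed by -0.39 between the groups (exact permutation p = 0.667). Leaving out labelled replicate 1 turned it to 0.52, and leaving out unlabelled replicate 1 turned it to 0.54. Taken mRNA by mRNA, the group difference of the log2 ratio of 16S to the mRNA was below 0 for 11 of 13 (median -0.54), and that of 12S for 9 of 13 (median -0.25). The 13 ratios share the same rRNA counts in the same 4 libraries, so these counts are a description and not separate results.

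MT-ND1, the complex I subunit whose gene follows 16S after MT-TL1, served as a single denominator. The ratio of 16S to MT-ND1 per kilobase was 0.118 and 0.464 in labelled and 0.908 and 0.240 in unlabelled libraries. These groups overlapped as well, and the log2 ratio of both rRNAs to MT-ND1 differed by -0.87 between the groups, against -0.39 with all 13 mRNAs. The exact permutation p of the ratio to MT-ND1 was 0.667, and this ratio was not recomputed without single libraries. MT-ND1 itself was higher in the labelled libraries, with an adjusted p of 0.00725 in edgeR and a log2 fold change of 2.42 ± 0.34. That fold change was the highest of the 13 mRNAs, whose median was 1.96, so the size of the difference depends on the mRNA chosen.

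**Figure D3:**
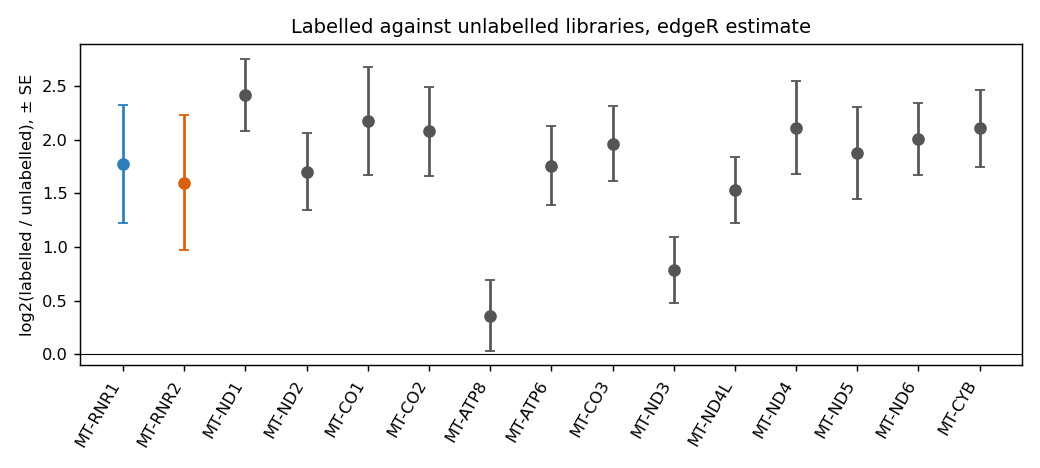
Log2 fold change (labelled over unlabelled, edgeR) with its standard error for MT-RNR1, MT-RNR2 and the 13 mitochondrial mRNAs. The rRNAs stand at 1.78 and 1.6, inside the range of the mRNAs, with standard errors of 0.55 and 0.63.

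The spread between libraries of the same group set these rRNAs apart from nearly all other genes. Over 12656 genes with a mean of at least 5 CPM, the median size of the log2 difference between replicates was 0.105 in the labelled and 0.212 in the unlabelled pair. In labelled replicate 2, 16S was 4.85-fold and 12S 3.51-fold the level of labelled replicate 1. That of 16S was the largest difference of any of these genes in the labelled pair, and 12S was in the third place. In unlabelled replicate 1, 16S was 3.23-fold and 12S 2.98-fold the level of unlabelled replicate 2, at places 6 and 10 among these genes. The 13 mRNAs moved far less, at 1.08 to 1.43 times in labelled replicate 2 over labelled replicate 1, and 0.784 to 1.95 times in unlabelled replicate 2 over unlabelled replicate 1.

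The gene in the second place of both pairs was ENSG00000281383, chosen here after its values were seen. It covers 923 bases on the minus strand at chr21:8254592-8255514, among the copies of the cytosolic rRNA genes. It stood at 10.0 and 43.4 CPM in labelled and 103 and 20.4 CPM in unlabelled libraries. Like both mitochondrial rRNAs, it was higher in labelled replicate 2 than in labelled replicate 1 and higher in unlabelled replicate 1 than in unlabelled replicate 2. Unlike them, it was highest in unlabelled replicate 1.

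**Figure D4:**
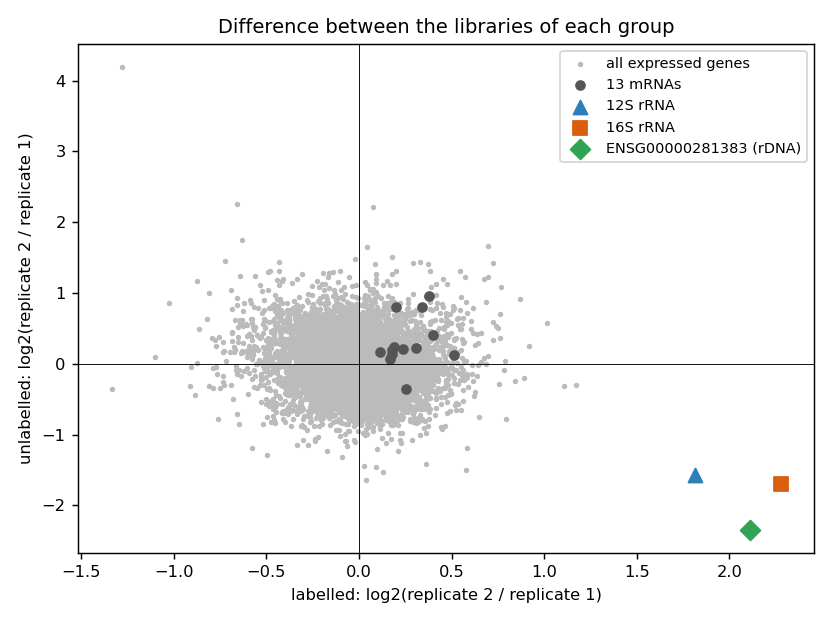
Log2 ratio of replicate 2 to replicate 1 in the labelled pair (horizontal) and in the unlabelled pair (vertical) for genes with a mean of at least 5 CPM. The 12S and 16S rRNAs and ENSG00000281383 stand apart at the lower right, while the 13 mitochondrial mRNAs (dark circles) lie among the other genes.

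The tRNAs that flank the rRNAs were examined for the same spread. Fragments of MT-TV, between 12S and 16S, numbered 10 and 83 in labelled and 7 and 2 in unlabelled libraries. Relative to assigned fragments this was a 6.34-fold difference between labelled replicates 2 and 1, the highest of the 22 mitochondrial tRNAs, whose median was 1.38. MT-TV was also 2.47-fold higher in unlabelled replicate 1 than in unlabelled replicate 2, on 7 and 2 fragments. In the unlabelled pair only MT-TV and MT-TL1 of the 22 were higher in replicate 1. For both, the 95% Poisson intervals of unlabelled replicates 1 and 2 overlapped. Those of MT-TV were 0.344 to 1.76 and 0.042 to 1.25 per 1000000 assigned fragments. MT-TF went the other way, with unlabelled replicate 1 at 0.530 times unlabelled replicate 2. MT-TF, before 12S, had 4 and 15 fragments in labelled and 3 and 4 in unlabelled libraries, too few for a test, as was MT-TV.

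MT-TL1, after 16S, had 30 and 91 fragments in labelled and 7 and 4 in unlabelled libraries. Its labelled libraries were both above the unlabelled ones, with an edgeR log2 fold change of 3.12 ± 0.54 and an adjusted p of 0.0338. Without labelled replicate 2 the edgeR adjusted p was 0.608. Genes of this kind are 59 to 75 bases long, so their counts can leave out fragments that reach into the rRNA.

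Removal of rRNA was followed with the assignment table and with cytosolic rRNA genes. The 8 listed genes of the 45S, 18S, 28S and 5.8S rRNAs had 0 and 3 fragments in labelled and 3 and 1 in unlabelled libraries, and the 17 genes of 5S had 0 in all 4. A count of 0 in the labelled replicate 1 library allows a share of up to 3.2e-05% of assigned fragments, for counting error only. These genes have many near-identical copies, and a fragment with several equal places is not counted, so the zeros do not measure how much cytosolic rRNA was left.

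Multi-mapped records, the alignments of fragments with several places, numbered 6059635 and 15992331 in labelled and 22599823 and 7158307 in unlabelled libraries. They made up 23.1% and 39.7% of records in labelled and 52.2% and 26.5% in unlabelled libraries. Replicate 2 was the higher of the labelled pair and replicate 1 the higher of the unlabelled pair, as for the mitochondrial rRNAs, and the groups overlapped (difference of -7.92 percentage points, exact permutation p = 0.667). Unmapped records ran the other way within each pair, at 18.1% and 11.6% in labelled and 13.6% and 26.5% in unlabelled libraries. One fragment can give several records, and the table does not say which sequences they hold.

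ENSG00000281383 was then summed with 3 other minus-strand genes of 923 bases on chromosome 21, which lie within RNA45SN1, RNA45SN2 and RNA45SN3. The 3 are identical in sequence and differ from ENSG00000281383 by 4 bases, while ENSG00000281383 itself lies within none of the annotated 45S genes. Counting took no account of strand, so RNA of either strand is included. Together the 4 genes had 89 and 473 fragments in labelled and 999 and 144 in unlabelled libraries, or 9.49 and 38.5 per 1000000 assigned fragments in labelled and 122 and 24.9 in unlabelled libraries. Nearly all of these came from ENSG00000281383, with 86 and 451 fragments in labelled and 928 and 135 in unlabelled libraries. The 3 genes within 45S genes held 3 and 22 in labelled and 71 and 9 in unlabelled libraries. The sum therefore rests on 1 gene, chosen after its values were seen, and its groups overlapped.

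For each fragment of these 4 genes there were 488 and 469 mitochondrial rRNA fragments in labelled libraries and 56.5 and 92.4 in unlabelled libraries. For each 1000 multi-mapped records there were 7.16 and 13.9 mitochondrial rRNA fragments in labelled and 2.50 and 1.86 in unlabelled libraries. On both scales the labelled values lay above the unlabelled ones, and this was not particular to the rRNAs. For each fragment of the 4 genes, the 13 mRNAs had 27768 and 7494 fragments in labelled and 679 and 4050 in unlabelled libraries. For each 1000 multi-mapped records they had 408 and 222 in labelled and 30.0 and 81.5 in unlabelled libraries. Both denominators were chosen after it was seen that they varied within each pair in the same direction as 12S and 16S, so division by them takes out part of that spread by construction. The ratios are given as a description with no test. The part of rRNA removal in the spread of 12S and 16S was not tested.

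**Figure D5:**
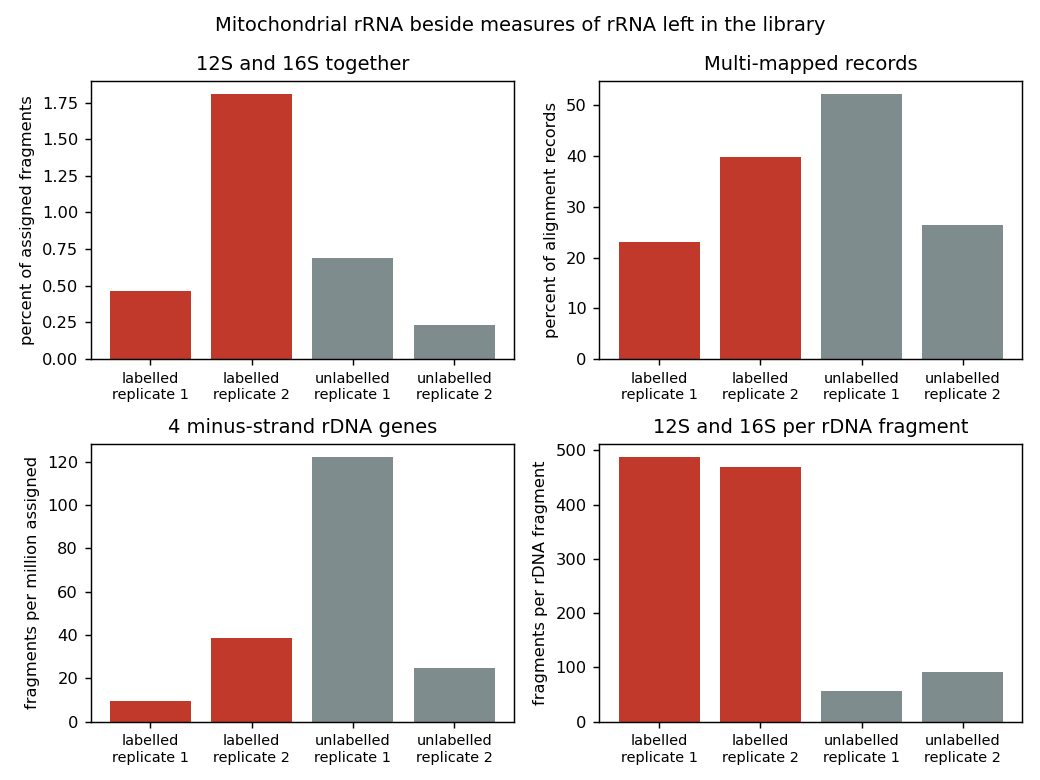
Share of assigned fragments of both mitochondrial rRNAs, share of multi-mapped records, fragments of the 4 minus-strand genes (rDNA on the axes, nearly all from ENSG00000281383) per 1000000 assigned, and mitochondrial rRNA fragments for each of these fragments, by library with labelled libraries on the left. The first 3 overlap between groups, and the last is 488 and 469 in labelled against 56.5 and 92.4 in unlabelled libraries.

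Nuclear genes whose proteins act on these rRNAs did not pass the test. Of 9 factors that modify 12S or assemble the small subunit, 4 had a log2 fold change above 0, as had 48.0% of all 18973 genes tested, and the median was -0.01, against -0.01 over all genes. The edgeR adjusted threshold was passed by 0 of them, and 0 had an unadjusted p under 0.05 in either direction. The values were 0.20 for TFB1M, which dimethylates 12S, 0.17 for TRMT2B, a uridine methyltransferase, and 0.15 for METTL17, an assembly factor of the small subunit. With scaling by library size alone, which moved the median over all genes to -0.37, these 3 stood at -0.16, -0.19 and -0.21.

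Of 17 factors for 16S and the large subunit, 12 lay above 0, around a median of 0.08. The edgeR adjusted threshold was passed by 0 of them, and at an unadjusted p under 0.05 there were 2 higher and 1 lower, against 5.67% and 5.88% of all genes tested. The helicase DDX28 was at 0.38, the assembly factor MALSU1 at 0.36 and the GTPase MTG1 at -0.40. Of 15 genes for mitochondrial transcription, RNA processing and decay, 11 lay above 0 (median 0.04), 0 passed the adjusted threshold and 1 was higher at an unadjusted p under 0.05. The poly(A) polymerase MTPAP stood at 0.46, and the RNA-binding partners LRPPRC and SLIRP at -0.28 and -0.27.

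The protein partners of both rRNAs in the ribosome gave 0 genes past the edgeR threshold over all genes. Over all genes tested, 48.0% lay above 0, and 5.67% were higher and 5.88% lower at an edgeR unadjusted p under 0.05. Of 48 large subunit proteins tested, 30 lay above 0 (median 0.06), and 2 were higher and 6 lower at an unadjusted p under 0.05. MRPL52 stood at -0.62 (edgeR adjusted p 0.0862), MRPL9 at 0.76 and MRPL55 at -0.42. Of 29 small subunit proteins, 20 lay above 0 (median 0.10), and 5 were higher and 2 lower at an unadjusted p under 0.05, among them MRPS26 at 0.42, MRPS31 at 0.40 and MRPS17 at 0.55. By contrast, 19 of 20 mitochondrial tRNAs tested and 4 of 13 mitochondrial mRNAs were called higher, where 0.269% of all genes were. The mRNA count was 11 with DESeq2 and with library size alone, 12 with no filter and 7 to 13 without single libraries, and DESeq2 called 14 tRNAs. The counts of 0 in the lists of nuclear genes held with DESeq2. With no filter, 1 large subunit protein was called higher and 1 lower. Without labelled replicate 1, unlabelled replicate 1 or unlabelled replicate 2 these counts of 0 did not all hold. Those fits also called more genes over the whole table. Without unlabelled replicate 1 the medians of the 5 lists lay between 0.13 and 0.24, against 0.025 over all genes. Without unlabelled replicate 2 those medians lay between -0.02 and 0.06, against 0.004 over all genes. With library size alone the medians of these 5 lists lay between -0.36 and -0.26, against -0.37 over all genes. That setting called 11 large and 7 small subunit proteins lower. It also called lower 2 of the 17 factors for 16S and 2 of the 15 genes for transcription, processing and decay. Over the whole table it called 2675 of 18973 genes lower.

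Likeness of pattern was measured as the root mean square difference of centred log2 CPM over the 4 libraries, where 0 is the same pattern. The 2 rRNAs differed from each other by 0.223, less than either did from any of 12654 other genes. The nearest to 12S were HNRNPA3P5 at 0.490, HNRNPA3P6 at 0.548, ENSG00000285646 at 0.610, HSPA1A at 0.635 and SP9 at 0.667, against a median of 1.19. For 16S they were HNRNPA3P5 at 0.627, HNRNPA3P6 at 0.670, SP9 at 0.704, ARMCX6 at 0.780 and LHX2 at 0.783, against a median of 1.22. HNRNPA3P5 and HNRNPA3P6 are pseudogenes of HNRNPA3 and HSPA1A has a near-identical neighbour. Fragments that map to several places were not counted, so the counts of these genes can leave out fragments that match such copies. The pattern rests on 4 values per gene and is given as a description.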

How the data were processed

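RNA was measured in 2 labelled and 2 unlabelled libraries, grouped by their titles. The main deposited table gives unscaled fragment counts by gene, as whole numbers, made by the authors with featureCounts 1.6.4 on GENCODE 44, per the file headers: read pairs with both ends mapped, over exons, without strand and without multi-mapping reads. A second deposited table counts alignment records by status. Per the submitters' processing notes, the aligner was STAR 2.7.9a and the build GRCh38. The gene lengths used per kilobase are the authors' own, per the file headers. No sample column was left out.

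The test was that of edgeR 4.0.16 (quasi-likelihood, filterByExpr, TMM, no block) in R 4.3.3, with Benjamini-Hochberg adjustment over 18973 genes. Dividing a log2 fold change by the root of its F gave the standard error. For ratios and shares an exact permutation test over libraries (two-sided) was run in Python 3.11.15. Intervals are 95% Wilson intervals for shares and exact 95% Poisson intervals for counts of the flanking tRNAs. Reads carried no stated molecular identifiers and may be copies of 1 molecule, so intervals and floors (3 counts) cover counting error only. Alternatives were DESeq2 1.42.0, library size alone, TMM from nuclear genes, no filter, a replicate block and leaving out each library. The fit was tested on simulated data.

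The members, gene lists and tests were chosen with earlier results of these data known. Genes named beside the members were the 3 with the smallest p in each list and the 5 most alike in pattern; MT-TF, MT-TV, MT-TL1 and MT-ND1 were named as neighbours.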

Additional observations from a re-analysis of the deposited data

How the results depend on the processing

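With no filter on low counts the edgeR log2 fold changes were 1.80 (adjusted p 2.04e-25) for MT-RNR1 and 1.63 (7.20e-21) for MT-RNR2, so both passed. Without single libraries they ran between 0.61 and 2.80 for MT-RNR1 and between 0.059 and 2.71 for MT-RNR2, and the cause was not tested. DESeq2, TMM from nuclear genes and library size alone (1.41 and 1.22) changed neither call. No pairing by replicate number was evident, since deviations of same-numbered libraries correlated at -0.104 over 12656 genes. With only 2 pairs this cannot settle whether the samples were paired. With the replicate block MT-RNR1 stood at 1.71 (edgeR adjusted p 0.00625), past the threshold, and MT-RNR2 at 1.4 (0.132), below it. The crossed pairing, chosen after seeing the data, called 376 genes over the whole table.

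Genes called over the whole table numbered 54, against 76 with DESeq2, 2744 with library size alone, 302 with no filter, 236 with the replicate block and 58 to 3985 without single libraries. The log2 ratio of rRNA to mRNA (-0.39) reversed to 0.52 without labelled replicate 1 and 0.54 without unlabelled replicate 1, within a range of -1.33 to 0.54. The difference in multi-mapped share (-7.92 points) reversed to 0.421 and 4.92 in the same cases, within -20.8 to 4.92. Among 36 other named genes in 324 values, 215 kept their side of the threshold and 103 newly passed it, 1 lost it (MT-TL1), and 4 genes reversed: MT-ATP8 to -0.0146 with library size alone and -0.0121 without unlabelled replicate 1 (up to 0.92 without other single libraries), and, with library size alone, TRMT2B to -0.19, TFB1M to -0.16 and METTL17 to -0.21. Adding or leaving out nuclear copies of 12S and 16S was not run, because no such gene was analysed here.

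With 2 libraries a group, precision is limited by the spread between libraries, and for MT-TF, MT-TV and MT-TL1 also by counts as low as 2 to 7 fragments.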
